A study of Mus musculus with 16 samples.

Results

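The genes described here build and assemble the extracellular matrix around collagen: 34 genes, listed by name for their known roles, were looked up in the expression table, and 34 of 34 were found among its 48432 genes. They comprise 9 genes for folding and hydroxylation of collagen in the endoplasmic reticulum (ER), 3 for propeptide processing, 4 for cross-linking, and 18 for matrix glycoproteins and proteoglycans. Their mRNA was measured by sequencing of polyA-enriched RNA in thioglycolate-elicited peritoneal macrophages (PM), which were harvested 5 days after the injection and loaded with oxidized LDL (oxLDL) at 50 µg/ml for 48 h. The study compared PM that gained or lost lipid droplet-associated hydrolase (LDAH), a protein of lipid droplets, each with its own controls. All 16 samples carry the strain label C57BL/6J, with 4 samples in each of 4 groups.

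LDAH-Tg PM overexpressed LDAH from a hemizygous transgene (*Ldah* Tg/0) driven by the *Csf1r* promoter and enhancer, which are active in macrophages and granulocytes. Their WT controls have a genotype label that also names ApoE. LDAH-KO PM came from mice in which a cassette inserted by homologous recombination replaced the first coding exons of *Ldah* in all tissues, and their WT controls are labelled LDAH WT. The mice of the study were also bred onto an *Apoe*-deficient background. Which background gave the PM for sequencing is not given in the sources used here, so *Apoe* status and the control line cannot be told apart.

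Fibrillar collagen is made as a long precursor in the ER, where prolyl and lysyl residues are hydroxylated and the triple helix is held by chaperones until it can be secreted. Outside the cell the propeptides are cut off, and lysyl oxidases cross-link the resulting fibrils. Glycoproteins such as fibronectin and fibrillin, and small proteoglycans such as decorin and biglycan, bind collagen and set the spacing and stiffness of the network. Fibroblasts and smooth muscle cells are the classical makers of this matrix. Macrophages are known to secrete fibronectin and other matrix proteins in wound repair and in atherosclerotic plaque.

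Every value below is the authors' mean of a group in TPM, a share of all transcripts scaled for transcript length. No value of a single sample was given in the table. The spread between samples, the overlap of groups and the depth are therefore unknown, no test was possible, and "higher" and "lower" refer to means alone. *Ldah* itself averaged 124.2 TPM in LDAH-Tg PM, against 28.5 TPM in their WT controls, and 27.9 TPM in LDAH-KO PM, against 44.5 TPM in their WT controls. Transcripts of the disrupted gene thus remained at 0.626 of the control mean in LDAH-KO PM, and a value for the whole gene does not show whether the removed part is present. Of 7 macrophage markers, 6 were above 0 in every group and ranged between 22.4 and 4959 TPM across groups. *Lyz2*, which macrophages express strongly, is listed at 0 in 3 of the 4 groups, so a value of 0 in this table need not mean absence.

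LDAH-KO PM had lower mean levels of most of these genes. At every level of expression and with nothing added to the values, means below those of the WT controls were found in LDAH-KO PM for 31 of the 34 genes, and higher means for 3. Most genes were lower by any size: between 61% and 72.9% of all genes, depending on the range of level from 0.1 TPM up. A factor of 1.5, chosen to mark larger differences, was passed by 24 genes that were lower and by 1 that was higher, *Pcolce2*. Among the 17981 genes above 0 in both groups, 15.0% were lower and 6.28% higher by that factor. The ratio of LDAH-KO to control means ran from 0.223 to 1.75 over the 34 genes, with a median of 0.50, and 17 genes lay at a ratio of 0.5 or less. No share of all genes was computed for that last cut. The study shows several matrix genes as responsive to LDAH from these same samples, so the direction is not independent evidence. In bulk RNA, fewer cells of a type and less RNA per cell cannot be told apart.

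LDAH-Tg PM differed little from their controls in the same genes. Higher means than in the WT controls were found in LDAH-Tg PM for 19 of the 34 genes and lower means for 15. Of all genes, between 47.1% and 57% were higher, depending on the range of level from 0.1 TPM up. None of the 34 was higher by a factor of 1.5, and 2 were lower by it, *Pcolce2* and *Lum*. Among the 18498 genes above 0 in both groups, 12.0% were higher and 8.44% lower by the same factor. The ratios ran from 0.50 to 1.37, with a median of 1.02.

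**Figure D1:**
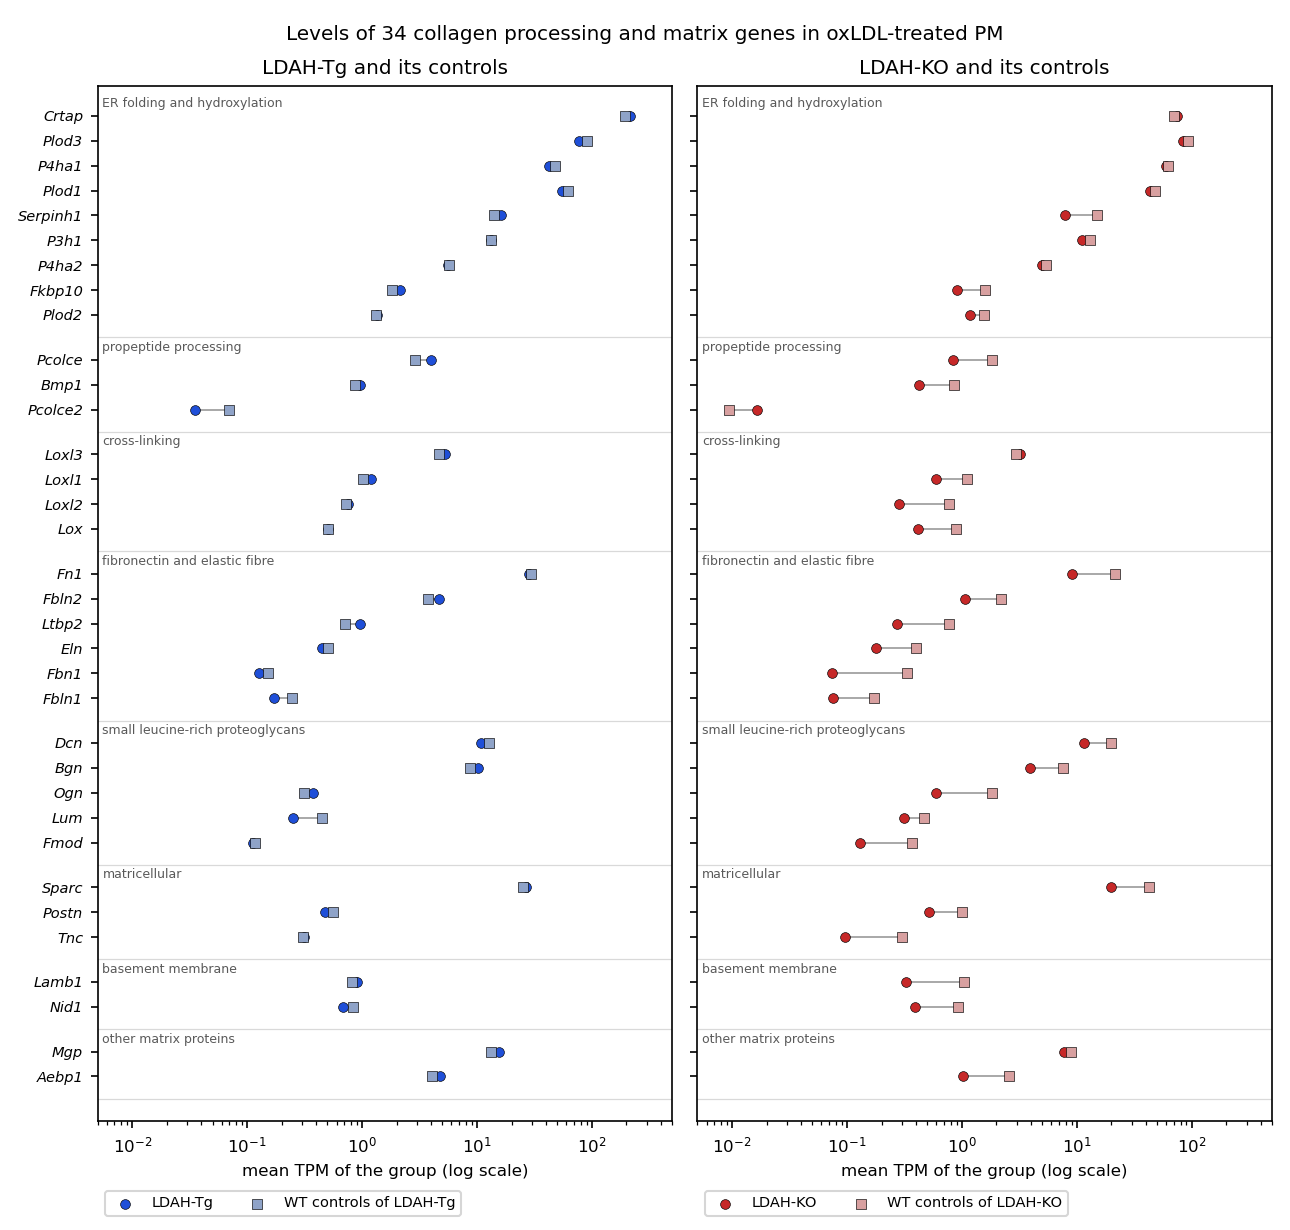
Mean TPM of each of the 34 genes on a log axis, with LDAH-Tg (circles) and their WT controls (squares) on the left and LDAH-KO (circles) and their WT controls (squares) on the right. Genes are grouped by role and a line joins the pair of means. In the right panel most lines extend to the left of the control, in 31 of 34 genes, while the ER genes above 20 TPM (*Crtap*, *Plod3*, *P4ha1* and *Plod1*) sit close to theirs.

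Genes that work inside the ER had LDAH-KO ratios nearer to 1 than the rest of the list. Of the 9 ER genes, 8 were lower in LDAH-KO PM than in their WT controls, *Serpinh1* and *Fkbp10* by a factor of 1.5 (15.0% of all genes at every level), and the median ratio was 0.903. *Fkbp10* lay at 1 to 5 TPM, where 9.09% of all genes were lower by that factor, and *Serpinh1* at 5 to 20 TPM, where 1.56% were. By any size, between 61% and 72.9% of all genes were lower, depending on the range of level from 1 TPM up. On the log2 scale the ER median was -0.15, against -0.11 for all genes at every level, so the ER median lay slightly below that of genes in general. The median of all genes was -0.11 at 5 to 20 TPM and -0.04 at 20 TPM and above. Of the 25 genes for secreted enzymes and matrix proteins, 23 were lower, 22 by a factor of 1.5, and the median ratio was 0.453. Summed over genes, ER transcripts came to 287.9 TPM in LDAH-KO PM, against 310.2 TPM in their WT controls, a ratio of 0.928. The other 25 genes came to 63.2 TPM in LDAH-KO PM, against 121.2 TPM in their WT controls, a ratio of 0.521. ER genes therefore made up 82.0% of the summed level in LDAH-KO PM and 71.9% in their WT controls. In LDAH-Tg PM the share was 78.3%, against 79.2% in their WT controls. The sets also differed in level: 7 of 9 ER genes averaged at least 5 TPM over LDAH-KO PM and their controls, against 5 of 25 others. Among those, 1 of 7 ER genes and 4 of 5 others were lower by a factor of 1.5 in LDAH-KO PM. Of all genes, 1.56% were lower by that factor at 5 to 20 TPM and 0.34% at 20 TPM and above. Levels still differed within this range: *Crtap*, *Plod3*, *P4ha1* and *Plod1* averaged above 20 TPM, and of the others only *Sparc* did. The difference between both sets of genes was not tested.

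*Serpinh1* encodes HSP47, the ER chaperone that binds procollagen. It is alone at its locus on the minus strand of chromosome 7 (99345376 to 99353239, GRCm38). *Serpinh1* averaged 16.1 TPM in LDAH-Tg PM, against 14 TPM in their WT controls, and 7.90 TPM in LDAH-KO PM, against 15.0 TPM in their WT controls. The log2 ratio, computed after adding 0.5 TPM to each mean, was 0.19 for LDAH-Tg and -0.88 for LDAH-KO. *Serpinh1* was thus the ER gene with the lowest ratio in LDAH-KO PM, at 0.526, while both control means lay close to each other.

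*Fkbp10* encodes FKBP65, a prolyl isomerase of the ER that acts on procollagen. It averaged 2.14 TPM in LDAH-Tg PM, against 1.81 TPM in their WT controls, and 0.915 TPM in LDAH-KO PM, against 1.57 TPM in their WT controls. Its log2 ratios were 0.19 in LDAH-Tg PM and -0.55 in LDAH-KO PM. The LDAH-KO ratio was 0.581 with nothing added and passed the factor of 1.5, which it did not with 0.5 TPM added. The annotated gene *Nt5c3b* overlaps *Fkbp10*, and both share a locus in the table.

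The prolyl 4-hydroxylases, whose alpha subunits are encoded by *P4ha1* and *P4ha2*, stabilize the collagen triple helix. *P4ha1* averaged 42.4 TPM in LDAH-Tg PM, against 47.7 TPM in their WT controls, and 60.3 TPM in LDAH-KO PM, against 62.6 TPM in their WT controls. *P4ha2* averaged 5.54 TPM in LDAH-Tg PM, against 5.69 TPM in their WT controls, and 5.02 TPM in LDAH-KO PM, against 5.37 TPM in their WT controls. The LDAH-KO ratios were 0.963 for *P4ha1* and 0.936 for *P4ha2*, and *P4ha1* turned higher than its controls after median-ratio scaling and both did after quantile normalization.

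Lysyl hydroxylases prepare collagen for cross-linking and glycosylation. *Plod1* averaged 55.0 TPM in LDAH-Tg PM, against 62.1 TPM in their WT controls, and 43.1 TPM in LDAH-KO PM, against 47.5 TPM in their WT controls. *Plod3*, whose product also carries glycosyltransferase activity, averaged 76.6 TPM in LDAH-Tg PM, against 91.6 TPM in their WT controls, and 83.7 TPM in LDAH-KO PM, against 92.7 TPM in their WT controls. *Plod1* and *Plod3* were thus somewhat lower in both genotypes than in their controls, with ratios between 0.836 and 0.907. The annotated gene *Znhit1* overlaps *Plod3*, and both are listed at the same locus. *Plod2*, which encodes the hydroxylase of collagen telopeptides, was the lowest of the 3 at 1.36 TPM in LDAH-Tg PM, against 1.31 TPM in their WT controls, and 1.17 TPM in LDAH-KO PM, against 1.57 TPM in their WT controls.

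*P3h1* and *Crtap* encode partners in the prolyl 3-hydroxylation complex. *P3h1* averaged 13.3 TPM in LDAH-Tg PM, against 13.2 TPM in their WT controls, and 11.0 TPM in LDAH-KO PM, against 13.1 TPM in their WT controls. *Crtap* averaged 215.3 TPM in LDAH-Tg PM, against 193.0 TPM in their WT controls, and 74.7 TPM in LDAH-KO PM, against 70.8 TPM in their WT controls. *Crtap* was the most abundant of the 34 genes in LDAH-Tg PM and their controls, and was 1 of the 3 genes with a higher mean in LDAH-KO PM.

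The RefSeq promoter table (GRCm38.p6) had 26 promoters for 22 of the 34 genes. The 250 bases upstream of the start site are printed for 2 genes that were lower in LDAH-KO PM, *Serpinh1* (chr7:99353240-99353489, minus strand) and *Bgn* (chrX:73483351-73483600, plus strand), and 2 that stayed near their controls, *Crtap* (chr9:114390713-114390962, minus strand) and *P4ha1* (chr10:59323046-59323295, plus strand), so that both kinds can be read side by side. None of these 4 windows overlaps an annotated gene. Capitals mark the letters TATAAA, found in *Crtap* only among the 4.
Serpinh1: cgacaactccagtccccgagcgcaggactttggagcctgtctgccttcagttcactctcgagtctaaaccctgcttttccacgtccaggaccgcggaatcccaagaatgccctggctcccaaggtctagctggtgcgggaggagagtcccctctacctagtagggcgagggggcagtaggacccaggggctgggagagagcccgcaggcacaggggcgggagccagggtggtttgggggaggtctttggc
Bgn: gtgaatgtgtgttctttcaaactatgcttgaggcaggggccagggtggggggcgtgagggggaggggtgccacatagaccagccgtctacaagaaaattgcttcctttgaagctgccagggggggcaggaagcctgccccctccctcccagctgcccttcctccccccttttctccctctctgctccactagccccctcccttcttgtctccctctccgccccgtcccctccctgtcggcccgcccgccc
Crtap: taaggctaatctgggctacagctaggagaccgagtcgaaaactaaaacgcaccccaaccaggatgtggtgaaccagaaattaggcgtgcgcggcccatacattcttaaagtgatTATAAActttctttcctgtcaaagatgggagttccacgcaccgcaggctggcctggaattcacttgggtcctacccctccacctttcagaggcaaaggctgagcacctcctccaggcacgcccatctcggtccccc
P4ha1: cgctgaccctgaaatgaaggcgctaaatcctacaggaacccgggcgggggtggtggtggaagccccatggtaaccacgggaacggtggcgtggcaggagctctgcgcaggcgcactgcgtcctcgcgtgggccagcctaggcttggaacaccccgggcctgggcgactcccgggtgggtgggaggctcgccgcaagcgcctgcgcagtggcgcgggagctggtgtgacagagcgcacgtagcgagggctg

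Searched on both strands in the 250 bases, TATAAA was in 6 of the 26 promoters (23.1%), against 12.4% of all 32851 promoters in the table. CCAAT was in 5 of 26 (19.2%), against 33.8% of all. GGAATG was in 2 of 26 (7.69%), against 12.6% of all, and TGANTCA was in 0 of 26, against 6.75% of all. These counts are of letters in a window, several genes have more than 1 promoter, and nothing about a factor's binding follows from them.

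**Figure D2:**
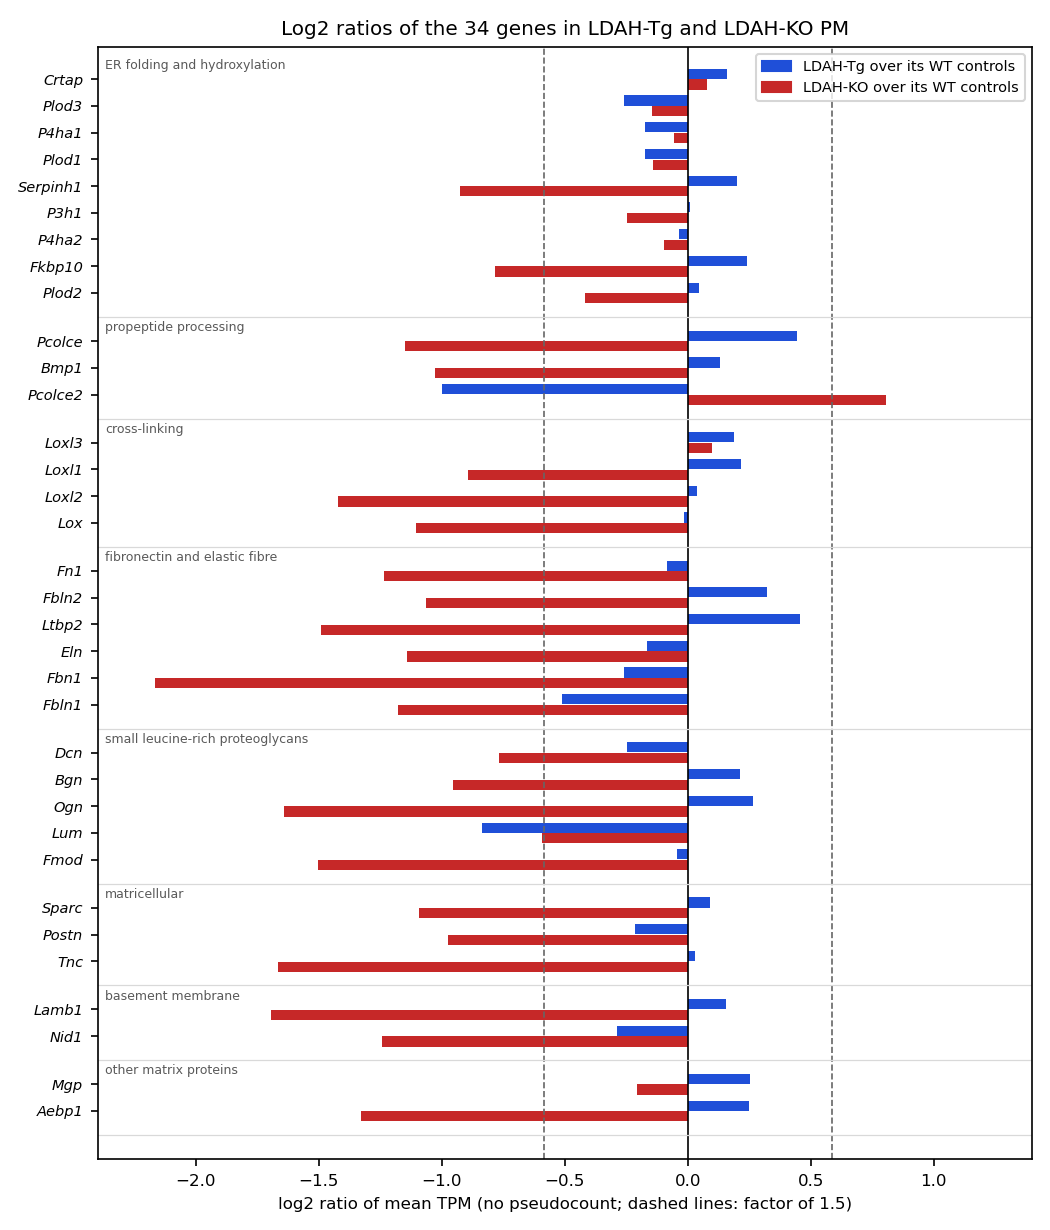
Log2 ratio of mean TPM for each of the 34 genes, with no pseudocount: LDAH-Tg over their WT controls (blue, upper bar of each pair) and LDAH-KO over their WT controls (red, lower bar). Dashed lines mark a factor of 1.5. Red bars pass the left line for 24 genes, and blue bars pass it for *Pcolce2* and *Lum* alone.

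Propeptide processing is carried out by BMP1, a metalloproteinase that trims procollagen, with PCOLCE as its enhancer. *Pcolce* averaged 3.96 TPM in LDAH-Tg PM, against 2.91 TPM in their WT controls. It averaged 0.829 TPM in LDAH-KO PM, against 1.84 TPM in their WT controls. The log2 ratios were 0.39 in LDAH-Tg PM and -0.81 in LDAH-KO PM. *Pcolce* had the highest log2 ratio in LDAH-Tg PM of the 19 genes with a mean of at least 1 TPM, and lies in a locus that the table shares with *Fbxo24*. *Bmp1* averaged 0.951 TPM in LDAH-Tg PM, against 0.868 TPM in their WT controls, and 0.421 TPM in LDAH-KO PM, against 0.858 TPM in their WT controls. *Pcolce2* was nearly unexpressed, at no more than 0.0702 TPM in any group, so its ratios of 0.50 in LDAH-Tg PM and 1.75 in LDAH-KO PM rest on very low means.

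The lysyl oxidases, which oxidize lysines so that collagen and elastin fibres cross-link, split in LDAH-KO PM. *Loxl3* averaged 5.31 TPM in LDAH-Tg PM, against 4.67 TPM in their WT controls, and 3.19 TPM in LDAH-KO PM, against 2.98 TPM in their WT controls. It is the most abundant of the 4 and shares its locus in the table with *Htra2* and *Aup1*. The other 3 were at or below 1.19 TPM in every group. With nothing added, all passed the factor of 1.5 downward in LDAH-KO PM, with ratios of 0.465 for *Lox*, 0.538 for *Loxl1* and 0.373 for *Loxl2*. With 0.5 TPM added, *Loxl1* did not (log2 ratio -0.55). Of all genes at 0.1 to 1 TPM, 31.3% were lower by that factor. In LDAH-Tg PM the ratios of the 4 genes lay between 0.989 and 1.16.

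Fibronectin and the elastic fibre genes were lower in LDAH-KO PM throughout: with nothing added, 6 of 6 passed the factor of 1.5, with ratios between 0.223 and 0.478. Of all genes, 15.0% were lower by that factor at every level, and 31.3% at 0.1 to 1 TPM. With 0.5 TPM added, *Fbn1* (log2 ratio -0.54), *Eln* (-0.40) and *Fbln1* (-0.22) did not pass it. *Fn1*, which encodes fibronectin, a scaffold for collagen deposition, averaged 28.1 TPM in LDAH-Tg PM, against 29.8 TPM in their WT controls, and 9.16 TPM in LDAH-KO PM, against 21.5 TPM in their WT controls. Its log2 ratios were -0.08 in LDAH-Tg PM and -1.19 in LDAH-KO PM. *Fbln2*, which encodes fibulin-2, a binding partner of fibronectin and elastic fibres, averaged 4.66 TPM in LDAH-Tg PM, against 3.73 TPM in their WT controls, and 1.06 TPM in LDAH-KO PM, against 2.21 TPM in their WT controls. Both genes were at less than 0.5 of their control mean in LDAH-KO PM.

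Lower still in level were *Fbn1* (fibrillin-1, the backbone of microfibrils), *Eln* (elastin), *Fbln1* (fibulin-1) and *Ltbp2* (a microfibril-associated protein of the latent TGF-beta binding protein family). *Fbn1* had the smallest ratio of the 34 genes, with 0.0748 TPM in LDAH-KO PM, against 0.336 TPM in their WT controls. *Ltbp2* had the largest ratio in LDAH-Tg PM, with 0.968 TPM there, against 0.707 TPM in their WT controls, and its LDAH-KO ratio was 0.356. The LDAH-KO ratio was 0.453 for *Eln* and 0.442 for *Fbln1*. All 4 of these genes were under 1 TPM in every group.

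The small leucine-rich proteoglycans, which coat collagen fibrils and regulate their diameter, were also lower in LDAH-KO PM in 5 of 5 genes. Of all genes, 66.8% were lower by any size at 0.1 to 1 TPM, 70.7% at 1 to 5 TPM and 72.9% at 5 to 20 TPM. *Bgn*, which encodes biglycan, averaged 10.1 TPM in LDAH-Tg PM, against 8.73 TPM in their WT controls, and 3.91 TPM in LDAH-KO PM, against 7.58 TPM in their WT controls. *Dcn*, which encodes decorin, averaged 10.8 TPM in LDAH-Tg PM, against 12.8 TPM in their WT controls, and 11.6 TPM in LDAH-KO PM, against 19.8 TPM in their WT controls. The log2 ratios in LDAH-KO PM were -0.87 for *Bgn* and -0.74 for *Dcn*. For *Dcn* the control means differed as well, so that its LDAH-KO mean lay between the means of LDAH-Tg PM and of their WT controls.

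*Lum* (lumican), *Fmod* (fibromodulin) and *Ogn* (osteoglycin) were expressed at a lower level. *Ogn* averaged 0.376 TPM in LDAH-Tg PM, against 0.313 TPM in their WT controls, and 0.591 TPM in LDAH-KO PM, against 1.85 TPM in their WT controls. Its log2 ratio of -1.11 in LDAH-KO PM counts among the compared genes only because the control mean was high, and the table gives it 1 locus with *Cenpp*, *Aspn*, *Ecm2* and *Omd*. *Fmod* had an LDAH-KO ratio of 0.352. *Lum* was the one gene of this class at a lower ratio in LDAH-Tg PM (0.559) than in LDAH-KO PM (0.663).

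Matricellular proteins modulate how cells interact with matrix. *Sparc*, which encodes osteonectin, a collagen-binding glycoprotein, averaged 26.6 TPM in LDAH-Tg PM, against 25 TPM in their WT controls. It averaged 19.9 TPM in LDAH-KO PM, against 42.4 TPM in their WT controls. The log2 ratios were 0.09 in LDAH-Tg PM and -1.07 in LDAH-KO PM. *Sparc* was the one listed gene averaging at least 20 TPM over LDAH-KO PM and their controls that passed the factor of 1.5 downward. Its control means differed as well, at 42.4 TPM for LDAH-KO and 25 TPM for LDAH-Tg. *Postn* (periostin) and *Tnc* (tenascin-C), both at no more than 1.01 TPM in any group, had LDAH-KO ratios of 0.508 for *Postn* and 0.315 for *Tnc*.

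For the basement membrane, *Lamb1* (laminin subunit beta-1) averaged 0.902 TPM in LDAH-Tg PM, against 0.810 TPM in their WT controls, and 0.324 TPM in LDAH-KO PM, against 1.05 TPM in their WT controls. *Nid1*, which encodes nidogen-1, a linker of laminin and collagen IV, averaged 0.678 TPM in LDAH-Tg PM, against 0.828 TPM in their WT controls, and 0.394 TPM in LDAH-KO PM, against 0.933 TPM in their WT controls. Both passed the factor of 1.5 downward in LDAH-KO PM, as did 31.3% of all genes at 0.1 to 1 TPM.

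*Aebp1* and *Mgp*, the remaining matrix genes, moved unequally. *Aebp1*, whose longer product is a secreted collagen-binding protein (ACLP), averaged 4.80 TPM in LDAH-Tg PM, against 4.04 TPM in their WT controls, and 1.02 TPM in LDAH-KO PM, against 2.56 TPM in their WT controls. *Mgp*, which encodes matrix Gla protein, an inhibitor of calcification, averaged 15.6 TPM in LDAH-Tg PM, against 13.1 TPM in their WT controls, and 7.77 TPM in LDAH-KO PM, against 8.96 TPM in their WT controls. The log2 ratios in LDAH-KO PM were -1.01 for *Aebp1* and -0.19 for *Mgp*, while in LDAH-Tg PM they were 0.22 for *Aebp1* and 0.24 for *Mgp*.

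Since ratios scatter more at low levels, the genes were also read against all genes of similar level, with nothing added to the values. In LDAH-KO PM, genes lower by a factor of 1.5 were 14 of 14 listed genes at 0.1 to 1 TPM (mean of both groups), against 31.3% of all genes there. At 1 to 5 TPM they were 5 of 7, against 9.09% of all genes, and at 5 to 20 TPM 4 of 7, against 1.56%. At 20 TPM and above it was *Sparc* alone of 5, against 0.34%. In LDAH-Tg PM no listed gene was higher by that factor in any of these ranges, where between 0.385% and 22.7% of all genes were. By any size, higher means in LDAH-Tg PM were found for 6 of 14 listed genes at 0.1 to 1 TPM (56.9% of all genes there), with a median ratio of 0.979, against 1.08 for all genes. At 1 to 5 TPM they were 7 of 7 (57% of all genes), with a median ratio of 1.18, against 1.03. At 5 to 20 TPM they were 4 of 6 (51.1%), with a median ratio of 1.08, against 1.0, and at 20 TPM and above 2 of 6 (47.1%), with 0.915, against 0.991. The listed genes thus lay above all genes in the middle ranges and below them at both ends.

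**Figure D3:**
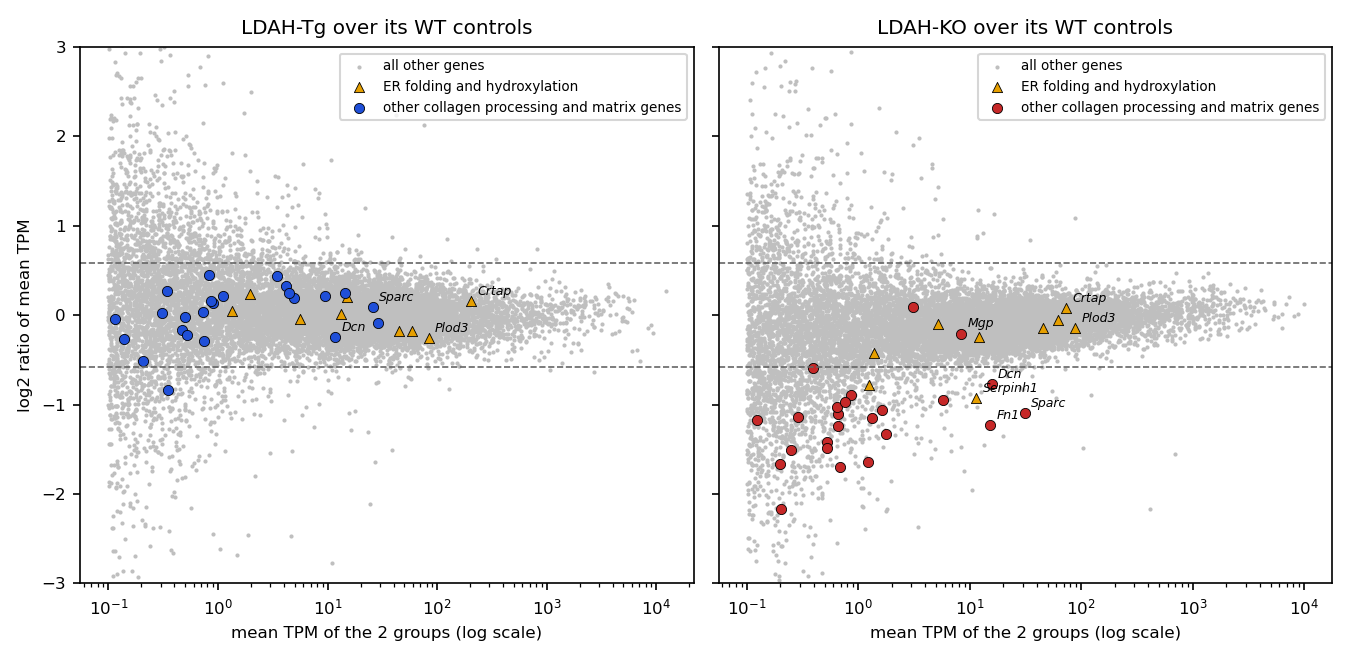
Log2 ratio of mean TPM against the mean TPM of the 2 groups (log axis) for all genes (grey) and the listed genes (ER genes as triangles, the rest as circles), in LDAH-Tg PM (left) and LDAH-KO PM (right), with dashed lines at a factor of 1.5. Genes under 0.1 TPM or past a log2 ratio of 3 are not drawn. On the right, *Sparc*, *Fn1*, *Serpinh1* and *Dcn* lie under the lower line at levels where few grey points do, and *Crtap* and *Plod3* lie near 0.

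Comparisons limited to genes with a mean of at least 1 TPM, with 0.5 TPM added, gave fewer differences. In LDAH-KO PM 19 listed genes were compared: 17 were lower and 2 higher by any size, against 66.6% and 33.4% of the 11289 genes compared. By a factor of 1.5, 9 were lower and 0 higher, against 1.83% and 0.390% of those genes. In LDAH-Tg PM 19 were compared, 13 higher and 6 lower by any size, against 50.5% and 49.5% of 11395 genes. By a factor of 1.5 there were 0 in either direction, against 1.26% higher and 0.685% lower. A gene that passes the minimum only through the group where it is high, such as *Ogn*, had to differ, so these counts describe the genes that passed and not all 34.

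Side by side, 17 of the 34 genes combined a higher mean in LDAH-Tg PM with a lower mean in LDAH-KO PM, each relative to its controls, 14 were lower in both, *Crtap* and *Loxl3* were higher in both, and *Pcolce2* was lower in LDAH-Tg PM and higher in LDAH-KO PM. Among 18 listed genes compared in both with the minimum of 1 TPM, 10 were higher in LDAH-Tg PM and lower in LDAH-KO PM. Of all 10858 genes compared in both, 32.3% had that pattern. No such share was computed for the counts over all 34 genes or for genes lower in both. *Serpinh1*, *Bgn*, *Sparc*, *Fbln2*, *Pcolce* and *Aebp1* had it, whereas *Fn1* and *Dcn* were lower in both genotypes.

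The control lines themselves differed. Comparing WT controls of LDAH-KO with WT controls of LDAH-Tg, 26.5% of 11404 genes were higher and 12.1% lower by a factor of 1.5, and the median log2 ratio of all genes was 0.17. Of 20 listed genes compared, 3 were higher by that factor (*Sparc*, *Dcn* and *Ogn*) and 2 lower (*Crtap* and *Fbln2*), with a median log2 ratio of -0.12. *Crtap* averaged 70.8 TPM in WT controls of LDAH-KO, against 193.0 TPM in WT controls of LDAH-Tg. Levels are therefore read within each genotype and its own controls.

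Markers of matrix-producing cells were present at low level and were also lower in LDAH-KO PM. The 9 fibroblast markers summed to 5.84 TPM in LDAH-Tg PM, against 4.55 TPM in their WT controls, and 3.49 TPM in LDAH-KO PM, against 7.40 TPM in their WT controls. In LDAH-KO PM 7 of the 9 were lower, 5 by a factor of 1.5, with a median ratio of 0.553. That factor was passed downward by 15.0% of all genes and by 31.3% of those at 0.1 to 1 TPM, where 66.8% were lower by any size. *Pdgfra*, a receptor of fibroblasts, averaged 3.30 TPM in LDAH-Tg PM, against 2.83 TPM in their WT controls, and 1.83 TPM in LDAH-KO PM, against 4.74 TPM in their WT controls, while *Pi16* and *Pdgfrb* were under 0.2 TPM everywhere. The LDAH-KO ratio of *Pdgfra*, 0.386, was the lowest of the 9. *Fap* and *Tcf21* went the other way in LDAH-KO PM, with ratios of 1.45 for *Fap* and 1.25 for *Tcf21*, at LDAH-KO means of 0.107 and 0.108 TPM.

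Mesothelial cells line the peritoneum from which PM were collected. Their 10 markers summed to 10.1 TPM in LDAH-Tg PM, against 10.0 TPM in their WT controls, and 6.79 TPM in LDAH-KO PM, against 11.0 TPM in their WT controls. In LDAH-KO PM 8 of the 10 were lower, 5 by a factor of 1.5 (15.0% of all genes, 31.3% at 0.1 to 1 TPM and 9.09% at 1 to 5 TPM), and the keratin genes *Krt8* and *Krt18* were higher. By any size, 66.8% of all genes were lower at 0.1 to 1 TPM and 70.7% at 1 to 5 TPM. *Wt1*, a transcription factor of mesothelium, averaged 1.35 TPM in LDAH-KO PM, against 2.75 TPM in their WT controls.

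The 4 smooth muscle markers summed to 7.23 TPM in LDAH-Tg PM, against 5.84 TPM in their WT controls, and 6.82 TPM in LDAH-KO PM, against 12.2 TPM in their WT controls. All 4 were lower by a factor of 1.5 in LDAH-KO PM (15.0% of all genes), with *Myh11* and *Cnn1* under 0.1 TPM in every group. *Tagln* lay at 1 to 5 TPM, where 9.09% of all genes were lower by that factor, and *Acta2* at 5 to 20 TPM, where 1.56% were. The 3 endothelial markers summed to 1.82 TPM in LDAH-Tg PM, against 2.04 TPM in their WT controls, and 1.60 TPM in LDAH-KO PM, against 2.15 TPM in their WT controls. The B cell and T cell markers were each under 1 TPM in every group. By comparison, the 6 macrophage markers above 0 in every group had LDAH-KO ratios between 0.795 and 1.02, and summed to 3576 TPM in LDAH-KO PM, against 3952 TPM in their WT controls. The part of these cells in the lower matrix transcripts of LDAH-KO PM was not tested.

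**Figure D4:**
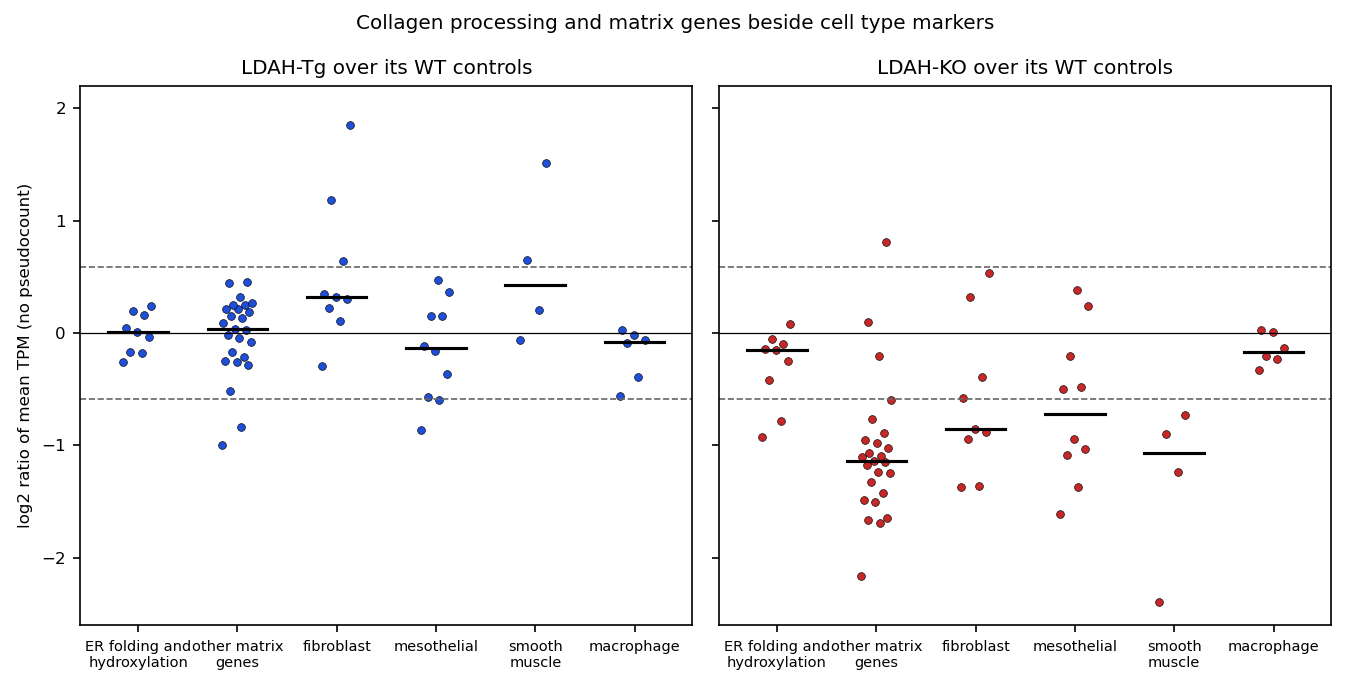
Log2 ratio of mean TPM, with no pseudocount, for the 9 ER genes, the 25 other listed genes and the cell type markers, in LDAH-Tg PM (left) and LDAH-KO PM (right). Each point is a gene, black bars are medians over genes, and dashed lines mark a factor of 1.5. In LDAH-KO PM the 25 other genes have a median ratio of 0.453, the smooth muscle markers 0.477, the fibroblast markers 0.553, the mesothelial markers 0.607, the ER genes 0.903 and the macrophage markers 0.890. *Lyz2* is left out, being listed at 0 in 3 groups.

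Fibrillar collagen chains, the substrates of these enzymes, were lower in LDAH-KO PM too. *Col1a1* averaged 5.44 TPM in LDAH-Tg PM, against 3.26 TPM in their WT controls, and 0.880 TPM in LDAH-KO PM, against 2.44 TPM in their WT controls. *Col1a2* had ratios of 1.18 in LDAH-Tg PM and 0.378 in LDAH-KO PM, and *Col3a1* had 1.03 in LDAH-Tg PM and 0.340 in LDAH-KO PM. The LDAH-KO ratios of these chains lie among those of the secreted matrix genes and below that of *Serpinh1*.

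A further 51 genes of the same pathways were examined, and 51 were found. Of 22 other genes of collagen assembly, 12 were compared in LDAH-KO PM, with 11 lower, 1 higher and 0 past a factor of 1.5, and a median log2 ratio of -0.11 (all genes: 66.6% lower, 1.83% lower by the factor, median -0.08). At every level, 17 of 20 above 0 were lower in LDAH-KO PM, 6 of them by the factor, and 1 was higher by it, against 15.0% and 6.28% of all genes. In LDAH-Tg PM 2 were higher and 10 lower of 12, with 0 past the factor and a median of -0.09, against 50.5% higher among all genes. At every level 5 of 20 were higher in LDAH-Tg PM and 15 lower, 1 higher and 3 lower by the factor. Of all genes at every level, 12.0% were higher and 8.44% lower by the factor in LDAH-Tg PM. Of 29 other matrix genes, 7 were compared in LDAH-KO PM, with 6 lower, 1 higher and 1 lower by the factor, and a median of -0.27. In LDAH-Tg PM 6 were higher and 2 lower of 8, with 0 past the factor and a median of 0.13, against 50.5% higher among all genes. At every level 12 of 25 were higher in LDAH-Tg PM and 13 lower, with a median ratio of 0.995. By the factor 2 were higher and 3 lower, near the shares of all genes (12.0% and 8.44%).

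The 1 matrix gene past the factor was *Thbs1*, which encodes thrombospondin-1, with 4.53 TPM in LDAH-KO PM, against 7.26 TPM in their WT controls (log2 ratio -0.63). *P3h4*, a relative of the prolyl 3-hydroxylases, had a log2 ratio of -0.53 in LDAH-KO PM, and *Lamc1* (laminin subunit gamma-1) -0.37. In LDAH-Tg PM *Fkbp9*, an ER prolyl isomerase, had a log2 ratio of -0.35, and *Agrn* (agrin) and *Ecm1* (extracellular matrix protein 1) each 0.34. *Ecm1* averaged 202.3 TPM in LDAH-Tg PM, against 160.3 TPM in their WT controls, a level above that of every listed gene but *Crtap*. At every level and with nothing added, 14 of 25 other matrix genes above 0 passed the factor of 1.5 downward in LDAH-KO PM, against 15.0% of all genes.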

How the data were processed

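RNA of 16 samples was sequenced as stranded, polyA-enriched, paired-end libraries. The authors trimmed reads with Trimmomatic and aligned them with STAR 2.4.2a to mm10 (GRCm38). The submitters' processing notes also name bcl2fastq 2.17.1.14, HTSeq, DESeq2 and Cuffdiff 2.2.1, with no role, and the tool that made the TPM values and the annotation release are not given in the sources used here. The deposited values are, per the file headers, the authors' mean TPM of each group, and each column has the same total over 48432 genes (1 line holding the total was left out). Depth and replicate spread are therefore unknown, and the planned limma fits, the values without each replicate and the replicate block could not be run.

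Ratios of means were taken with 0.5 TPM added, for genes with a mean of at least 1 TPM and no group at 0, and also at every level with nothing added, a choice made after seeing the data. Counts use a factor of 1.5. All 34 genes are accounted for. Those averaging at least 1 TPM over the 4 groups are given in every group, as are some of lower level picked after their values were seen. Of the other pathway genes, the 6 with the largest absolute log2 ratios are named. Collagen chains were added as context. The genes and lists were chosen with earlier results of these data known. All 34 gene IDs are in GENCODE M21 (GRCm38), and 14 of the genes share their locus in the table with another gene, so reads could have been divided differently. The ratio step with 0.5 TPM added was tested on simulated data, with changes by a factor of 2 in genes of at least 5 TPM. Ratios with nothing added and changes in genes of lower level were not covered by it. Python 3.11.15, pandas 2.3.3 and numpy 2.4.6 were used.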

Additional observations from a re-analysis of the deposited data

How the results depend on the processing

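No paired analysis was possible because only group means were used, and for the same reason no replicate could be left out. Of the listed genes, in LDAH-KO PM the median log2 ratio was -0.55. It was -0.72 with 0.1 TPM added, -0.43 with 1 TPM added, -0.21 with a minimum of 5 TPM, -0.40 after quantile normalization, and -1.0 with no pseudocount and no minimum (added after seeing the data). The 9 genes lower by a factor of 1.5 became 14 with no minimum, 5 with a minimum of 5 TPM, 4 with a factor of 2, and 24, with 1 higher in place of 0, with no pseudocount and no minimum. In LDAH-Tg PM the median was 0.15. It was 0.016 with no minimum, -0.012 with a minimum of 5 TPM, and 0.032 with no pseudocount and no minimum, where 2 genes in place of 0 were lower by 1.5. Between control lines the median was -0.12. It was 0.0083 with no minimum, 0.0077 with no pseudocount and no minimum, -0.27 after median-ratio scaling and -0.23 after quantile normalization. Single genes changed sign in 3 of 126 values for LDAH-KO (*P4ha1* and *P4ha2*) and 1 of 126 for LDAH-Tg (*Plod2*). Of the 9 genes past the factor of 1.5 with 0.5 TPM added and a minimum of 1 TPM, 0 lost that place where still compared. This does not hold for the 24 genes counted with nothing added, of which 14 passed with 0.5 TPM added and no minimum. The low genes carry the least certain ratios, since TPM means show neither depth nor counts.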
